A study of Mus musculus with 4 samples.

Results

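The genes described here are 10 that mouse male germ cells are known to switch on around pachytene, the long middle stage of meiotic prophase: Hspa2, Ybx2, Meig1, Ldhc, Pgk2, Fabp9, Acr, Adam3, Insl6 and Tcte3. They were picked by symbol from the 31053 gene identifiers of the files, and all 10 are listed in each library. The study followed the first wave of spermatogenesis in cultured and uncultured testis with single-cell RNA sequencing, in 4 libraries of 1 group each. The 2-day and 7-day cultures started from testes taken at 7 days postpartum (dpp), which were cut up and cultured as fragments, beneath a PDMS chip, on agarose soaked with α-MEM and AlbuMAX. The other testes were taken at 9 dpp and 14 dpp and were not cultured, so the total age was 9 days in the 2-day culture and at 9 dpp, and 14 days in the 7-day culture and at 14 dpp. All 4 groups were of the strain that the labels call Acr-Gfp tg mouse (C57BL/6), a reporter line, and the labels do not give the number of animals in a library. The files hold no Gfp feature, so transgene reads that match Acr, if any, would be counted as Acr, which was not tested. Since each group is 1 library, no difference below has a replicate check, and the intervals at 95% cover counting error only.

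In leptotene and zygotene, the first stages of meiotic prophase, chromosomes condense and begin to pair. In pachytene they are fully paired, the X and Y chromosomes are silenced in the sex body, and many genes whose proteins serve spermatids and sperm are first transcribed. Several of the 10 genes are testis copies of widely used proteins: Ldhc of the lactate dehydrogenases, Pgk2 of the glycolytic enzyme phosphoglycerate kinase, Hspa2 of the HSP70 chaperones, Ybx2 of the Y-box RNA-binding proteins and Fabp9 of the fatty-acid-binding proteins. The others encode Meig1, needed to build the sperm flagellum, acrosin (Acr), a protease of the acrosome, Adam3, a sperm surface protein, Insl6, a relative of insulin and relaxin, and Tcte3, a dynein light chain.

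On GRCm38, with the GENCODE M21 annotation, all 10 are protein-coding genes on autosomes. Hspa2 lies at chr12:76404176-76406938 on the plus strand with its longest transcript in 1 exon, Ybx2 at chr11:69935796-69941605 on the plus strand, and Meig1 at chr2:3409043-3422648 on the minus strand. Ldhc lies at chr7:46861203-46878142 on the plus strand, Pgk2 at chr17:40207015-40208640 on the minus strand in 1 exon, and Fabp9 at chr3:10193621-10197283 on the minus strand. Acr lies at chr15:89568326-89574585 on the plus strand, and Adam3, Insl6 and Tcte3 lie on the minus strand at chr8:24677225-24725852, chr19:29321344-29325356 and chr17:15027152-15041488. Tcte3 has near copies that are counted as genes of their own: Gm3448 is 98.986% identical over 690 bases and also overlaps it on the same strand, and Gm3417 is 98.8% identical over 670 bases. Because reads can be split among them, the values of Tcte3 are uncertain. Fabp9 shares 344 identical bases with the overlapping gene model Gm37389, which had 0 UMIs in every library.

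The promoter windows of RefSeq (GRCm38.p6, 250 bases before to 50 after an annotated start) cover 6 of the 10 genes with 10 windows. The 250 upstream bases are printed for the gene that came first in the order along the stage bins described below (Hspa2), the gene with the largest log2 ratio of levels plus 1 CPM in both time comparisons (Ldhc) and the single-exon copy of an X-linked gene (Pgk2), all read 5′ to 3′ on the gene's strand from chr12:76404120-76404369, chr7:46861013-46861262 and chr17:40208610-40208859. Capitals mark matches on either strand to CNGTT, the core bound by MYB factors, and to TGACG, a half-site of the cAMP response element.
Hspa2: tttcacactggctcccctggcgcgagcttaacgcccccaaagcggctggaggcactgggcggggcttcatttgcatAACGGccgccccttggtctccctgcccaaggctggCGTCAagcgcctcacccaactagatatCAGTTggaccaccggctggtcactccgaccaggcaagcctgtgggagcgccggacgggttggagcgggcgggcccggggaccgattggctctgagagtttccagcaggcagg
Ldhc: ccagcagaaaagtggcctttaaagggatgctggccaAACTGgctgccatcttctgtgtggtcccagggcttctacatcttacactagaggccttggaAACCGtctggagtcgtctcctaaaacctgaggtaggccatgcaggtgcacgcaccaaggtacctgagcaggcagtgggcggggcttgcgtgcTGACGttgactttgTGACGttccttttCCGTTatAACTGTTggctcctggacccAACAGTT
Pgk2: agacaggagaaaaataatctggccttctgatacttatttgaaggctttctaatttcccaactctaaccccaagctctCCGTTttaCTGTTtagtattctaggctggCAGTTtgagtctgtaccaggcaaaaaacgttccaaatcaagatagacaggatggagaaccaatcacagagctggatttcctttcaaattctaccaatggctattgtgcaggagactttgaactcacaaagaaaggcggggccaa
The Ldhc stretch holds 7 CNGTT matches, of which those at -27 and -25 overlap each other, as do those at -7 and -5 from the annotated start, and 2 TGACG matches at -61 and -47. Hspa2 has CNGTT at -174 and -112 with TGACG at -139, and Pgk2 has CNGTT at -173, -165 and -144 and no TGACG. The string CNGTT is common: 80.3% of all 32851 RefSeq windows of the same length hold it, with a median of 2 matches, against 7 of the 10 member windows. TGACG is in 20.8% of all windows and in 4 of the 10, and GTTGCC, a half-site of RFX factors, is in 12.5% and in 1 of the 10. Of the 10 windows those of Ldhc overlap each other, and Ybx2 and Meig1 also have more than 1 window each.

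Germ cells were taken as kept cells with at least 2 UMIs of Ddx4 and Dazl together, both genes of the germ line. Where 4 values are listed below without names, they are given for the 2-day culture first, then for the 7-day culture, 9 dpp and 14 dpp. The gate held 2825, 2576, 2737 and 4240 cells, or 41.1%, 53.5%, 53.2% and 68.2% of kept cells. Their median depth ranged from 3740 UMIs in the 2-day culture to 11383 at 9 dpp. One label mentions female gonads, but 462 to 1080 cells without germ UMIs in each library carried at least 3 UMIs of the Sertoli cell markers Sox9, Amh, Aard, Rhox8, Cst9 and Amhr2. The same 6 markers were found inside the germ gate, at a summed 843, 1183, 2431 and 3212 CPM, defined in the next paragraph. Germ-gated cells with at least 3 of these UMIs made up 4.96%, 5.09%, 33.1% and 27.3%. Because a fixed number of UMIs is reached more easily in deep cells, the marker UMIs were also counted after thinning each cell to 2000 UMIs, and results without either set of cells are given together below. The libraries shared 29 to 74 kept barcodes per pair.

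Below, a level is in CPM, the UMIs of a gene per 1000000 UMIs summed over germ-gated cells. UMIs are read from the 3′ end and were not divided by gene length, so levels are compared between libraries and not between genes. A difference is the log2 ratio of CPM plus 1, and a gene is counted as higher or lower at a log2 ratio of at least 1 in size.

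From 9 to 14 dpp, 8 of the 10 genes were higher by this rule, all but Pgk2 and Adam3, where 5.6% of the 14565 genes with at least 50 UMIs were higher. From the 2-day to the 7-day culture, 9 of the 10 were higher, all but Adam3, against 5.76% of 12941 genes. Adam3 in both comparisons and Pgk2 in culture, whose log2 ratio of 1.01 just passed the rule, had fewer than 50 UMIs and would not enter that background. No member was lower in either comparison, with 1.57% and 2.42% of genes lower. The median log2 ratio of the 10 genes was 2.97 in vivo and 2.82 in culture, and that of all genes was -0.05 and -0.02. At 14 days of total age none of the 10 was higher in the 7-day culture than at 14 dpp, with 1.3% of genes higher, and none was lower, with 4.32% of genes lower. Without cells with at least 3 Sertoli marker UMIs per 2000 UMIs, Ldhc passed the rule as lower in culture. Without cells with at least 3 at full depth its log2 ratio was -0.14.

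**Figure D1:**
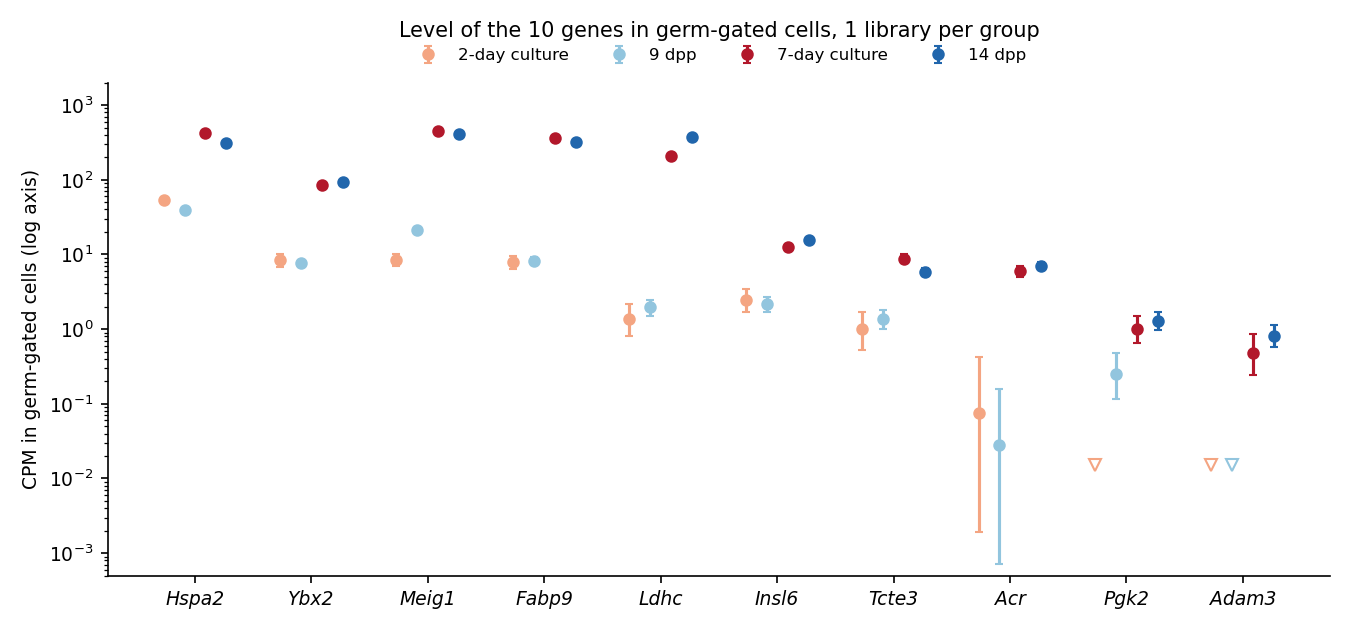
Level of each gene in germ-gated cells of the 4 libraries, in CPM on a log axis, with exact Poisson intervals at 95% that cover counting error only. For Hspa2, Ybx2, Meig1, Fabp9 and Ldhc the points of the 7-day culture and 14 dpp sit near each other and far above those of the 2-day culture and 9 dpp, while Acr, Pgk2 and Adam3 have few or no UMIs in the younger libraries.

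Among the genes of chaperoning and RNA control, Hspa2, whose product is needed for male germ cells to complete meiotic prophase, stood at 54.2, 425, 39.3 and 315 CPM. Its older libraries were 7.85-fold (7.27 to 8.48) and 8.0-fold (7.57 to 8.46) above the younger ones in culture and in vivo. The younger levels were no higher than those of Sertoli-gated cells, 69.7 CPM in the 2-day culture and 49.8 at 9 dpp, and stromal-gated cells had 40.3 and 65.7 CPM. Ybx2, which binds and stores mRNAs in germ cells, stood at 8.32, 86.1, 7.58 and 93.2 CPM. It was 10.3-fold (8.53 to 12.7) higher in the older culture and 12.3-fold (10.9 to 14.0) higher in the older testis. Both genes therefore separated the older from the younger libraries, and only Ybx2 started from a level above that of Sertoli-gated cells, which had 0.529 to 2.02 CPM.

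Meig1 stood at 8.40, 450, 21.5 and 407 CPM. The ratio with time was 53.5-fold (44.4 to 65.2) in culture and 18.95-fold (17.6 to 20.4) in vivo, so the culture ratio was the larger one. At 9 days of total age Meig1 was the 1 member that differed by the rule: it was lower in the 2-day culture than at 9 dpp, at a log2 ratio of -1.26 and 0.391-fold (0.318 to 0.479), where 4.4% of 13515 genes were lower and none of the 10 was higher, with 1.83% of genes higher. Sertoli-gated cells had 24.3 to 67.8 CPM of Meig1, against 0.594 to 6.29 CPM in stromal-gated cells. Without cells with at least 3 Sertoli marker UMIs per 2000 UMIs, Meig1 was at 7.16 CPM after 2 days of culture and 16.1 CPM at 9 dpp, and its log2 ratio of -1.07 still passed the rule. It did not pass without cells with at least 3 such UMIs at full depth (-0.81) or with 10 added to CPM (-0.77). At 14 days of total age Meig1 was at 1.11 times (1.08 to 1.13) its level at 14 dpp in the 7-day culture.

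Of the enzymes of energy metabolism, Ldhc had the largest log2 ratio of the 10 in both time comparisons, 6.98 in vivo and 6.46 in culture. In culture Meig1 came first instead with 10 added to CPM (4.64 against 4.26 for Ldhc) and with cells thinned before the gate (5.18 against 5.11). It stood at 1.37, 208, 1.95 and 371 CPM, with only 18 and 69 UMIs behind the younger values. The 7-day culture had 0.560 times (0.542 to 0.578) the level at 14 dpp, a log2 ratio of -0.83. Without cells with at least 3 Sertoli marker UMIs per 2000 UMIs the levels were 220 and 459 CPM and the log2 ratio was -1.06. It was -0.14 without cells with at least 3 such UMIs at full depth. With equal cell weights it was -0.54, and with cells thinned before the gate -0.57. Pgk2 had 0, 23, 9 and 57 UMIs, or 0, 1.01, 0.254 and 1.30 CPM, so its ratios with time rest on few molecules. They were 4.43-fold in culture against a floor of 3 UMIs in the 2-day culture (exact lower limit 3.32) and 5.11-fold (2.51 to 11.7) in vivo. The intervals of the Pgk2 levels in the 7-day culture (0.643 to 1.52 CPM) and at 14 dpp (0.984 to 1.68 CPM) overlap.

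Fabp9, the fatty-acid-binding protein of the sperm head, stood at 7.86, 357, 8.14 and 320 CPM. The ratio was 45.4-fold (37.4 to 55.7) in culture and 39.3-fold (34.9 to 44.3) in vivo, and these intervals overlap. In contrast to Hspa2 and Meig1, its level in somatic cells was low, 0 to 6.75 CPM in Sertoli-gated and 0 to 4.26 CPM in stromal-gated cells, with 0 UMIs in both at 9 dpp. Its 103 and 288 germ-gated UMIs in the younger libraries thus lay above the Sertoli-gated level. At 14 days of total age the log2 ratio of culture to testis was 0.16 for Fabp9 and 0.43 for Hspa2.

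The genes of the acrosome and sperm surface had at most 1 UMI in the germ gate of each younger library. Acr had 1 UMI in the 2-day culture and 1 UMI at 9 dpp, against 136 UMIs (6.00 CPM) in the 7-day culture and 308 UMIs (7.02 CPM) at 14 dpp. Its ratio with time was 78.5 (13.9 to 3124) in culture and 248 (44.3 to 9843) in vivo, each against 1 UMI. Over whole libraries, with 1 and 4 UMIs in the younger ones, these ratios were 118 (20.9 to 4708) and 79.6 (30.8 to 294), so their order is not resolved. Adam3 had 0 UMIs in both younger libraries, 11 UMIs in the 7-day culture and 36 at 14 dpp. Against a floor of 3 UMIs per library this is 2.12-fold and 9.68-fold higher, and the exact lower limits of the ratios are 1.45 and 7.47. At 14 days of total age the intervals of both ratios included 1, at 0.854 times (0.693 to 1.05) for Acr and 0.591 times (0.271 to 1.19) for Adam3 in culture.

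Insl6, whose loss is known to stop male meiosis, stood at 2.44, 12.4, 2.18 and 15.5 CPM, with ratios of 5.09-fold (3.52 to 7.58) in culture and 7.11-fold (5.61 to 9.12) in vivo. Its younger levels were at or below those of Sertoli-gated cells, 2.65 to 4.42 CPM, and of stromal-gated cells, 3.17 to 5.37 CPM. Tcte3, with the limit of its near copies, stood at 0.993, 8.77, 1.36 and 5.79 CPM. It was 8.84-fold (5.05 to 16.9) higher in the older culture and 4.27-fold (3.12 to 5.94) higher in the older testis, and at 14 days of total age the culture had 1.51 times (1.25 to 1.83) the level of 14 dpp. Insl6 was 0.803 times (0.696 to 0.924) its 14 dpp level in the 7-day culture.

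The comparisons at matched age depended on how cells with Sertoli marker UMIs were treated. Leaving out cells with at least 3 such UMIs per 2000 UMIs, together with cells under 2000 UMIs, removed 6.83% (7-day culture) and 15.5% (14 dpp) of germ-gated cells, and 3.71% and 5.15% of the Ldhc UMIs. At 14 days of total age the log2 ratios were then 0.34 for Hspa2, -0.28 for Ybx2, 0.04 for Meig1, -0.02 for Fabp9 and -1.06 for Ldhc, and of the 10 signs only that of Fabp9 differed from the values above. Leaving out cells with at least 3 marker UMIs at full depth removed deeper cells, 5.09% and 27.3% in the same order, and with them 4.94% and 62.4% of the Ldhc UMIs. What remained was thus cut back unequally: the log2 ratio was -0.14 for Ldhc, 0.95 for Hspa2, 0.90 for Fabp9, 0.89 for Meig1 and 0.87 for Tcte3, and it turned positive for Ybx2 (0.55), Insl6 (0.26), Acr (0.45), Pgk2 (0.25) and Adam3 (0.32). At 9 days of total age the full-depth cut removed 21.8% of Meig1 UMIs in the 2-day culture and 65.7% at 9 dpp, and Meig1, at -0.81, no longer passed the rule. No ratio in time changed its sign under either treatment.

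Among the related genes, 26 of 27 other pachytene genes are in the files. In the germ gate, 18 of the 24 with at least 50 UMIs were higher at 14 than at 9 dpp and 0 were lower, and in culture 17 of 22 were higher and 1 was lower. Their median log2 ratios were 1.88 in vivo and 2.17 in culture. The 20 early prophase genes had medians of 0.77 and 0.22, with 8 and 6 higher, and the 8 spermatogonia genes had medians of -0.55 and -0.46. At 9 days of total age 7 of the 20 early prophase genes were higher in the 2-day culture than at 9 dpp, with a median of 0.91, while the 10 members had a median of -0.02. At 14 days of total age the medians were 0.25 for the other pachytene genes, 0.22 for the early prophase genes and -0.15 for the 10 members. These lists were chosen with results of these data known.

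Over whole libraries, germ and somatic cells together, 8 of the 10 genes were higher at 14 than at 9 dpp (4.32% of genes) and 8 were higher in the older culture (5.02% of genes), and Pgk2 and Adam3 fell short in both. No member was lower with time, where 2.09% and 2.65% of genes were. Meig1 was lower in the 2-day culture than at 9 dpp, at a log2 ratio of -1.28 (3.76% of genes lower). Ldhc was lower in the 7-day culture than at 14 dpp, at -1.17 and 128 against 290 CPM, where 2.87% of genes were lower. No member was higher in either culture than at its matched age, where 4.58% of genes at 9 days and 3.86% at 14 days were. The share of germ-gated cells, 53.5% after 7 days of culture and 68.2% at 14 dpp, moves with the whole-library levels, and its part in the Ldhc result was not tested. In a whole library, fewer expressing cells and less RNA per cell cannot be told apart.

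The order of onset was first read from the level in the younger library as a percent of that in the older one. In vivo this was 23.4% for Tcte3, 19.6% for Pgk2 (9 UMIs), 14.1% for Insl6, 12.5% for Hspa2, 8.13% for Ybx2, 5.28% for Meig1, 2.55% for Fabp9, 0.525% for Ldhc, 0.403% for Acr and 0% for Adam3. In culture it was 19.7% for Insl6, 12.7% for Hspa2, 11.3% for Tcte3, 9.66% for Ybx2, 2.20% for Fabp9, 1.87% for Meig1, 1.27% for Acr, 0.661% for Ldhc and 0% for both Pgk2 and Adam3. The culture and the uncultured testis put 33 of the 45 pairs of members in the same order. In the germ gate Hspa2 and Ybx2 stood before Meig1 and Fabp9, and these before Ldhc, in both, with intervals that do not overlap between these 3 steps. Over the whole library in vivo the intervals of Meig1 (7.29%, 6.90 to 7.70) and Ybx2 (6.80%, 6.01 to 7.67) overlapped. The order of these genes was thus not resolved there. The places of the scarce genes are not resolved: the intervals run to 7.22% for Acr, 30.1% for Pgk2 and 69.0% for Adam3 in culture, and to 2.26%, 39.8% and 13.4% in vivo, so pairs that hold them rest on few UMIs. The high percentages of Hspa2 and Insl6 stand beside the somatic levels given above, and they cannot be told apart from a level shared with somatic cells on this measure alone. The same limit holds for Meig1, whose younger levels were below those of Sertoli-gated cells, so its place as a middle step is uncertain.

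A closer reading used the germ cells themselves. Each germ-gated cell of at least 2000 UMIs was thinned to that number and sorted by their UMIs of the other pachytene genes into 3 to 5, 6 to 9, 10 to 19 and 20 or more. Cells below 3 with at least 3 early prophase UMIs formed the early prophase bin, and the remainder a bin called rest. These are ranges of a count, not cell types, and the bounds above 3 were chosen after the data were seen. Tex101 alone gave 57.6% to 67.8% of the list's UMIs, so the lower bins do not show pachytene by themselves. The bin of 20 or more held 0, 96, 0 and 115 cells, and that of 10 to 19 held 54, 338, 54 and 393. In the 7-day culture 32 cells had 18 to 19 and 21 cells 20 to 22 of these UMIs, and at 14 dpp 14 and 13 cells did.

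All 10 members stood at their highest level in the bin of 20 or more in both older libraries. The bins were made from genes of the same stage, some of them close to members by the correlations below. This placing was thus largely set by the choice of list, and how many of all genes are highest there was not counted. Ldhc was at 1941 CPM there in the 7-day culture and 4715 at 14 dpp, Meig1 at 3184 and 4297, Fabp9 at 3038 and 3703, Hspa2 at 1991 and 2667, and Ybx2 at 618 and 995. Insl6 was at 97.5 and 176 CPM, Acr at 58.2 and 87.0, Tcte3 at 54.1 and 56.8, Pgk2 at 7.15 and 14.3, and Adam3 at 4.59 and 10.5. Each of the 10 values was lower in the 7-day culture, and 9 of the 10 were when UMIs thinned to 2000 per cell were summed. The 2 values of Tcte3 were close, and in the culture Pgk2 rests on 14 and Adam3 on 9 UMIs. The share of all genes that were lower in this bin was not computed, so the count describes the members only. The median cell of this bin held 15 Ldhc UMIs in the 7-day culture and 96 at 14 dpp, while for Hspa2 it held 36.5 and 68. The cells of the bin also differed in depth, with medians of 18562 and 24767 UMIs, and in the UMIs of the stage list, 27 and 32 per 2000 UMIs. The part of that difference in the lower levels was not tested.

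**Figure D2:**
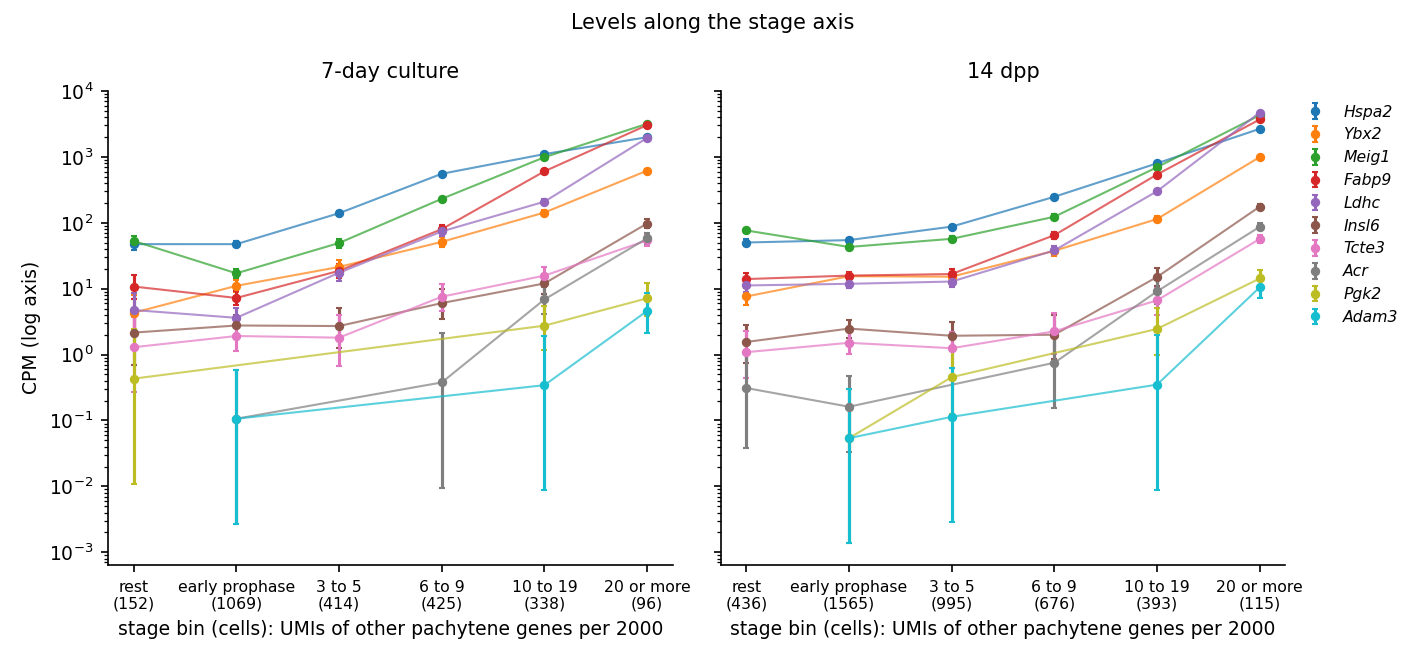
Level of the 10 genes in CPM on a log axis along bins of germ-gated cells, ordered by UMIs of other pachytene genes per 2000 UMIs, in the 7-day culture and at 14 dpp, with exact Poisson intervals at 95% and the number of cells in brackets. Every gene is highest in the bin of 20 or more, and at 10 to 19 Hspa2 stands at 55.4% and 29.9% of its top level, against 10.8% and 6.38% for Ldhc.

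One bin earlier, at 10 to 19, the order turned for several genes. Hspa2 was at 1103 CPM in the 7-day culture and 799 at 14 dpp, Meig1 at 988 and 697, Fabp9 at 604 and 540, and Ybx2 at 143 and 114. Ldhc did not turn in this bin, with 209 and 301 CPM. At 6 to 9 Hspa2 was at 555 CPM in culture and 248 at 14 dpp, Meig1 at 231 and 124, and Ldhc at 74.0 and 38.1. Thus the cultured cells of the middle bins had higher Hspa2 and Meig1 levels than the cells of 14 dpp in the same range. Those of the top bin had lower levels of both. The cells at 10 to 19 also differed in median depth (6957 UMIs in the 7-day culture and 4537 at 14 dpp) and in X-linked share (2.11% and 2.56%). The part of these differences in the levels was not tested.

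Taking the level at 10 to 19 as a percent of that at 20 or more gives an order of onset free of the younger libraries. In the 7-day culture it ran from Hspa2 at 55.4% (52.9 to 58.1) through Pgk2 at 38.4%, Meig1 at 31.0%, Tcte3 at 29.2%, Ybx2 at 23.2%, Fabp9 at 19.9%, Insl6 at 12.3%, Acr at 11.8% and Ldhc at 10.8% to Adam3 at 7.47%. At 14 dpp Hspa2 was again first with 29.9% (28.6 to 31.4), followed by Pgk2 at 17.2%, Meig1 at 16.2%, Fabp9 at 14.6%, Tcte3 at 11.7%, Ybx2 at 11.5%, Acr at 10.5%, Insl6 at 8.56%, Ldhc at 6.38% and Adam3 at 3.34%. The libraries put 42 of the 45 pairs in the same order. Meig1 stood before Ybx2 in both, and Fabp9 did at 14 dpp. This reverses their order read from the younger libraries in the germ gate. Pgk2 rests on 8 and 7 UMIs at 10 to 19, and its place in the order is not resolved. For 6 genes, Hspa2, Ybx2, Meig1, Fabp9, Ldhc and Tcte3, the interval of the 7-day culture lay wholly above that of 14 dpp. All 10 percentages were higher in culture here, but with another random thinning 8 were. Acr (6.60% in culture and 10.7% at 14 dpp) and Pgk2 (17.2% and 21.4%) then were lower. That thinning also put Meig1 at 27.9% and Fabp9 at 15.4% in culture, outside the counting intervals of the first thinning. The same percentages were not computed for all genes, so a shift of the bins common to all genes was not tested.

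**Figure D3:**
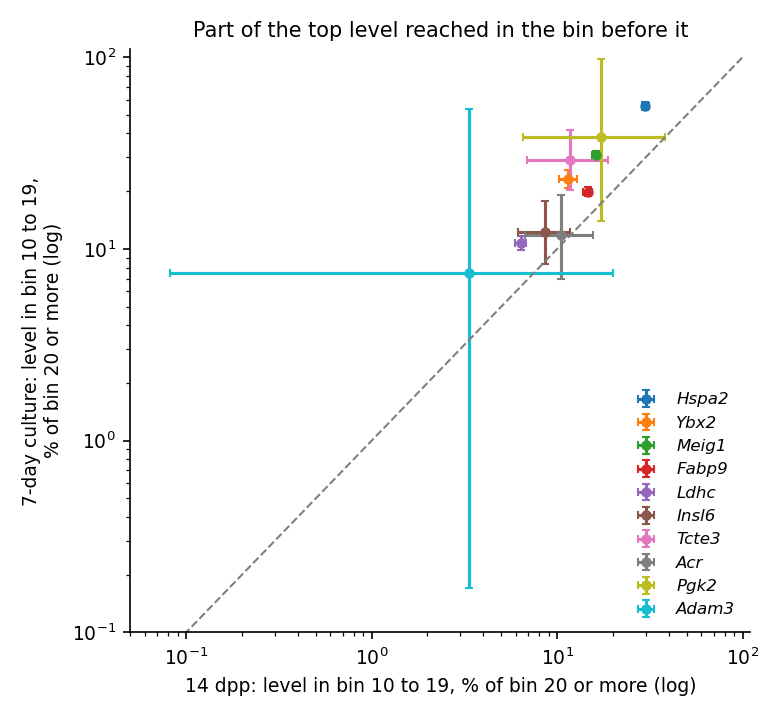
Level in the bin of 10 to 19 as a percent of the level in the bin of 20 or more, for the 7-day culture (vertical, log axis) against 14 dpp (horizontal, log axis), 1 point per gene with intervals at 95% for counting error. The order of the genes is similar on both axes, with Hspa2 at the top right and Adam3 at the lower left, and the points lie above the line of equal values.

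At 9 days of total age the bin of 10 to 19 held few UMIs of most members. Hspa2 stood there at 137 CPM (87.7 to 204) in the 2-day culture and 165 CPM (123 to 217) at 9 dpp, against 44.5 and 32.8 CPM in the rest. At 6 to 9 it was already at 135 CPM (109 to 167) and 80.2 CPM (63.4 to 100.1). Ldhc had 7 UMIs there in the 2-day culture, or 39.9 CPM (16.1 to 82.3), against 0.730 CPM (0.0185 to 4.07) from 1 UMI in the rest, and 2 UMIs at 9 dpp. Fabp9 had 0 UMIs in that bin in both libraries, which allows up to 17.1 and 9.71 CPM (3 UMIs of the total), above the 9.18 and 9.37 CPM of its early prophase bin, so a lower Fabp9 level was not detectable at this depth. Meig1 had 1 and 4 UMIs there. Hspa2 was thus above its level in the rest from 6 to 9 on in both younger libraries, and Ldhc at 10 to 19 in the 2-day culture on 7 UMIs.

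The UMIs were concentrated in few cells. In the 7-day culture 17 cells held 50% of all Ldhc UMIs, and at 14 dpp 26 cells did, with up to 317 and 640 UMIs in 1 cell. Fabp9 needed 34 and 35 cells, Ybx2 37 and 34, Meig1 51 and 40, and Hspa2 112 and 68 cells to reach 50%. Hspa2 was the most widely spread of the 10 in both libraries. The Adam3 count came from still fewer, with 4 and 7 cells holding 50%.

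Thinned to 2000 UMIs, 28.3% of germ-gated cells had an Hspa2 UMI in the 7-day culture and 19.6% at 14 dpp, against 15.4% and 11.8% of Sertoli-gated cells. For Meig1 the germ-gated share was 16.2% and 10.6% and the Sertoli-gated share 6.56% and 10.8%, so at 14 dpp the share was no higher than in Sertoli-gated cells and only the summed level set the germ cells apart. For Ldhc it was 8.38% (7.32 to 9.54) in the 7-day culture and 5.72% (5.03 to 6.47) at 14 dpp, against 0.679% and 1.99% in Sertoli-gated cells. Before thinning, at median depths of 6840 and 7801.5 UMIs, the Ldhc shares were 17.7% and 14.2%. Fabp9 was in 10.3% and 5.96% of germ-gated and 0.679% and 0.568% of Sertoli-gated cells. The share of germ-gated cells with these UMIs was thus higher in the 7-day culture for Hspa2, Meig1, Fabp9 and Ldhc, while the Ldhc level summed over cells was lower. In the younger libraries Ldhc was in 0.328% of cells (2-day culture) and 0.295% (9 dpp).

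Most cells with Ldhc or Acr also held Hspa2, and a smaller part of the cells with Hspa2 held Ldhc. Of the 209 cells with an Ldhc UMI in the 7-day culture, 83.3% had Hspa2, and of the 239 at 14 dpp, 71.1% had it. In the other direction, 24.6% of the 706 and 20.7% of the 820 cells with Hspa2 had Ldhc, against 8.38% and 5.72% of all germ-gated cells. Both directions count the same 174 and 170 cells, so their difference follows from Hspa2 being detected in more cells. Meig1-positive cells had Hspa2 in 80.7% and 57.4%. All 17 cells with Acr in the 7-day culture had Hspa2 and Fabp9, and 94.4% of the 18 at 14 dpp did for each. At most 8 of the 10 genes were found in 1 thinned cell, in both older libraries, against 4 in the 2-day culture and 3 at 9 dpp. Cells with 5 or more of the genes were 2.97% (2.34 to 3.71) in the 7-day culture and 2.66% (2.19 to 3.19) at 14 dpp, and 0 of 2441 and 0 of 2712 in the younger libraries, which allows up to 0.123% and 0.111% by 3 counts of the total (exact limits 0.151% and 0.136%) for cells in which 5 genes are detected at this depth, not for cells that express them.

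The X chromosome gives a reading of pachytene that the choice of genes did not use, since it is silenced at that stage. X-linked genes other than Xist gave 2.56% of UMIs in cells without a member in the 7-day culture and 2.77% at 14 dpp. With 1 to 2 members detected the share was 2.63% and 2.93%. With 3 to 4 it was 1.19% (189 cells) and 1.47% (94 cells), and with 5 or more 0.435% (0.402 to 0.470, 74 cells) and 0.353% (0.329 to 0.379, 111 cells). The cells with 5 or more members were also the deepest, with medians of 19715 and 26009 UMIs before thinning. In the younger libraries, cells without a member had 2.52% and 2.53%, and only 2 cells in each had 3 to 4 members, at 3.53% and 2.95%. Along the stage bins the X-linked share was 2.11% and 2.56% at 10 to 19 and 0.370% and 0.25% at 20 or more in the 7-day culture and at 14 dpp. At 10 to 19 in the 2-day culture and at 9 dpp it was 3.15% and 3.30%.

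**Figure D4:**
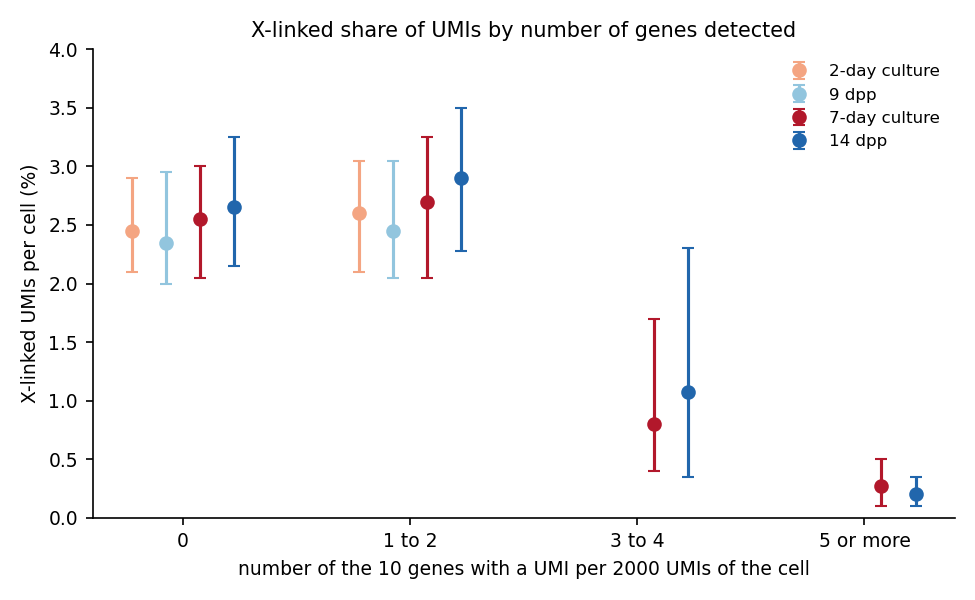
Percent of a cell's UMIs from X-linked genes other than Xist, by the number of the 10 genes with a UMI per 2000 UMIs, with points at the median cell and bars from the lower to the upper quartile. The medians for 5 or more members are 0.275% in the 7-day culture and 0.200% at 14 dpp, far below the 2.55% and 2.65% of cells with none.

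The share of a member in the UMIs of itself and a relative shifted along the stage bins. These are shares of UMIs, not divided by length, so they are compared along the bins, and a share above 50% does not show more molecules of the member. Pgk1, the X-linked gene from which Pgk2 derives, went from 60.8 CPM in the early prophase bin to 3.57 CPM (7 UMIs) in the bin of 20 or more in the 7-day culture, and from 59.97 to 4.44 CPM (14 UMIs) at 14 dpp. Pgk2 made up 8.60% and 5.34% of the UMIs of the pair at 10 to 19, and 66.7% (43.0 to 85.4) and 76.3% (63.4 to 86.4) at 20 or more. The share of Ldhc in the UMIs of Ldhc and Ldha was 60.4% in the 7-day culture and 27.3% at 14 dpp at 3 to 5, 85.2% and 61.0% at 6 to 9, and 85.7% and 86.6% at 20 or more. Ldha itself was at 26.4 and 38.1 CPM at 10 to 19 and at 323 and 729 CPM at 20 or more, so both genes were at their higher level in the top bin.

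Hspa2 reached 70.0% and 77.6% of the UMIs of Hspa2 and Hspa8, the constitutive HSP70, at 20 or more, from 29.9% and 13.1% at 6 to 9. Hspa8 went from 1643 and 2110 CPM in the early prophase bin to 852 and 769 CPM at 20 or more. Ybx2 made up 18.7% and 24.7% of the UMIs of Ybx2 and Ybx1 in the top bin, where Ybx1 was at 2690 and 3035 CPM. Fabp9 made up 99.8% and 99.7% of the UMIs of Fabp9 and Fabp5 there. Adam2 and Adam5, sperm surface relatives of Adam3, were at 222 and 77.6 CPM in the 7-day culture and 287 and 188 CPM at 14 dpp in the same bin.

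**Figure D5:**
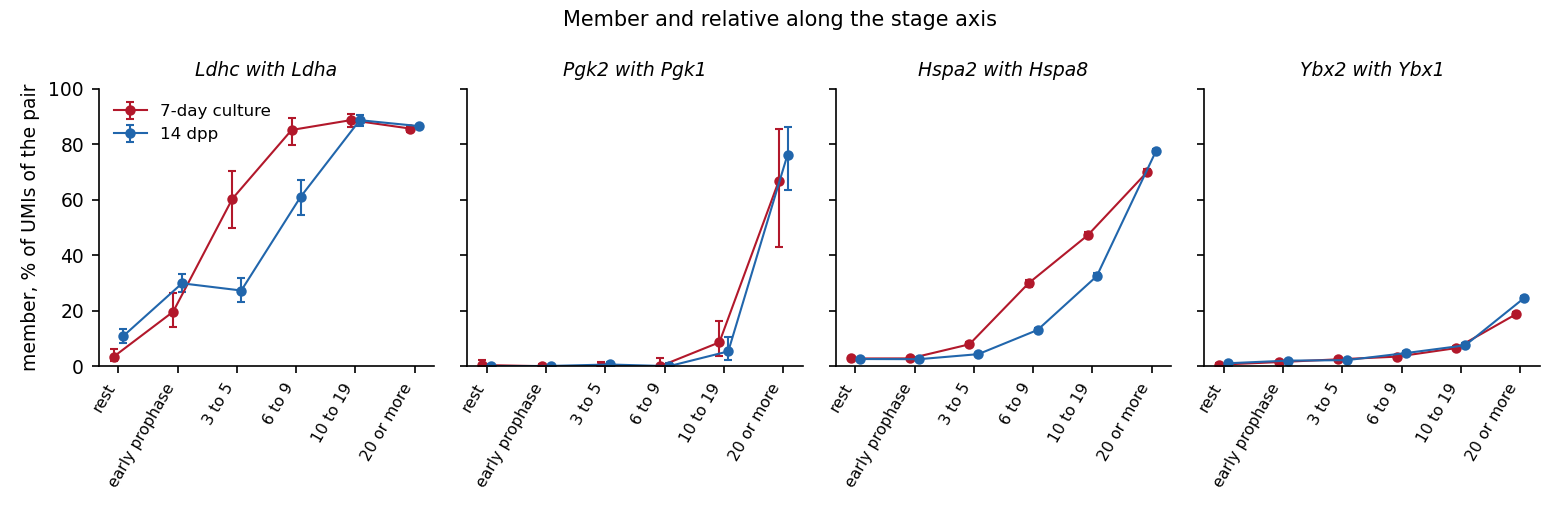
UMIs of Ldhc, Pgk2, Hspa2 and Ybx2 as a percent of the UMIs of the gene and its relative, along the stage bins in the 7-day culture and at 14 dpp, with exact binomial intervals at 95%. The share of Ldhc is already 85.2% and 61.0% at 6 to 9, that of Pgk2 is 8.60% and 5.34% at 10 to 19 and 66.7% and 76.3% in the top bin, and that of Ybx2 is 18.7% and 24.7% there.

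Genes outside the 10 were ranked by how closely their UMIs followed each member from cell to cell, by the smaller of their Pearson correlations in the 7-day culture (2494 cells) and at 14 dpp (4180 cells), over 11835 genes. Cells share a library and differ in stage, so these values are descriptions. Rsph1, a radial spoke protein gene, was the closest such gene for Hspa2 (0.65), Ybx2 (0.43), Meig1 (0.77) and Fabp9 (0.72), and Cox8c, a testis subunit of cytochrome c oxidase, for Ldhc (0.61). Both belong to the list that ordered the cells. Outside the 10, Acr was closest to Piwil1 (0.28), and Adam3 to Rbakdn (0.23) and Dnah8 (0.22), at counts too low to rank with confidence. Among the members, Fabp9 and Ldhc had correlations of 0.67 in the 7-day culture and 0.83 at 14 dpp, and Meig1 and Fabp9 0.76 and 0.80. By the same measure another member was closer than any gene outside the 10 for Fabp9 (Meig1, 0.76), Ybx2 (Fabp9, 0.46), Ldhc (Fabp9, 0.67), Acr (Ldhc, 0.33) and Insl6 (Fabp9, 0.30, against 0.29 for Eid3).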

How the data were processed

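The authors deposited 1 matrix per library of unnormalised counts, in unique molecular identifiers (UMIs), made with Cell Ranger 3.0.2 on mm10, per the submitters' processing notes; the libraries were Chromium 3′ v2, per the labels' protocols. Total counts were 34491701, 38632065, 60829941 and 58369264 UMIs for the cultures of 2 and 7 days and the testes of 9 and 14 dpp, from 7710, 5149, 5465 and 6527 barcodes. The cell filter asked for at least 500 genes and a mitochondrial share of at most 20%, and 92 to 251 doublet calls per library (scrublet in scanpy 1.11.5, expected rate 6%) were removed, leaving 6879, 4817, 5146 and 6219 cells. UMIs were summed over cells and divided by the summed total to give CPM. Sertoli-gated cells had no Ddx4 or Dazl UMI and at least 3 Sertoli marker UMIs, and stromal-gated cells at least 5 UMIs of Dcn, Col1a2, Pdgfra and Tcf21. For shares and bins, cells were thinned to 2000 UMIs, which left out 384, 82, 25 and 60 germ-gated cells. Intervals are exact (Poisson, conditional binomial for ratios, Clopper-Pearson for shares; scipy 1.17.1). The rule for higher and lower and the interval of a ratio were checked on simulated summed counts. The simulation did not cover the summing over cells, the gates or the thinning. Alternatives covered the cell filter, doublets, the gate, scaling (TMM factors, edgeR 4.0.16), thinning, cell weights and the constant added to CPM. The members, the lists and the rules were chosen with earlier results of these data known. The named genes are the 10 members, their relatives and the closest genes by correlation.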

Additional observations from a re-analysis of the deposited data

Results flagged for a closer look

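Meig1 differed between the pairs of matched age: its log2 ratio of CPM plus 1 in germ-gated cells was -1.26 for the 2-day culture over 9 dpp and 0.15 for the 7-day culture over 14 dpp, so the sign turned with age. The difference between these ratios was not tested, since each group had 1 library. Beside it, 4.96% (2-day culture) and 33.1% (9 dpp) of germ-gated cells carried at least 3 Sertoli marker UMIs, and Sertoli-gated cells had 24.3 and 36.0 CPM of Meig1. Without cells with at least 3 such UMIs per 2000 UMIs the ratios were -1.07 and 0.04. Without cells with at least 3 at full depth, which removed 65.7% of Meig1 UMIs at 9 dpp and 64.7% at 14 dpp but 21.8% and 8.08% in the cultures, they were -0.81 and 0.89.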

How the results depend on the processing

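Of the recomputed counts of members and of pairs, 108 were within 1.5 times the reported value and 7 were not. Of 640 recomputed log2 ratios of single members, 16 turned sign, 5 of them at 9 and 11 at 14 days of total age, where the reported ratio was at most 0.31 in size. None of the time comparisons in vivo or in culture, and no ratio past the rule, turned. The count of members lower in the 2-day culture than at 9 dpp, 1, became 0 without cells with at least 3 Sertoli marker UMIs at full depth, 2 with 0.1 added to CPM and 0 with 10 added. The count lower in the 7-day culture than at 14 dpp, 0, became 1 (Ldhc) without cells with at least 3 such UMIs per 2000. Both cuts were chosen after seeing the data. With 10 added, 5 members were higher in the 7-day than in the 2-day culture germ gate, and 5 and 5 in the whole libraries in vivo and in culture. Within 1.5 times, members higher in vivo in the germ gate numbered 7 with equal cell weights or thinning before the gate, 6 with 10 added, and 10 with 0.1 added or the cut per 2000. Members higher in culture numbered 8 with all barcodes, doublets kept, a gate of 1 UMI, equal weights, thinning before the gate or the full-depth cut, and 10 with 0.1 added. Pairs in the same order of onset ranged from 30 to 37 over the alternatives, and those along the stage bins from 36 to 42. No paired analysis was possible because each group had 1 library, and for the same reason no library could be left out. Depth limits Acr, Adam3 and Pgk2, with 0 to 9 UMIs in the younger libraries.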
